A study of Mus musculus with 18 samples.

Results

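The genes described here are 10 mouse genes of the antioxidant defence that are known targets of the transcription factor Nrf2 or remove superoxide and peroxide directly: Nqo1, Gclm, Gclc, Akr1b8, Txnrd1, Sod1, Sod2, Cat, Gpx1 and Gpx3. They were chosen by name, with earlier results of these data known. Every probe set of the array whose platform annotation gives a single gene symbol from this list was taken. That gave 12 of the array's 12488 probe sets, with 2 each for Nqo1 and Cat, and all 10 genes were among the 8251 genes that the array measures with such a probe set. All 10 passed the filter on dim signals.

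The series measured total RNA from the kidneys of 18 C57 mice, 1 Affymetrix array per mouse. At 7 days of age there were 6 kidneys labelled Aprt KO and 6 labelled control, and at 1 month there were 3 of each. The series text gives the genotypes as Aprt-/- and Aprt+/+ and the ages as newborn and adult, and the ages used here are those of the labels. Every Aprt KO mouse has a control littermate of its own sex in the labels, which gives 9 litter pairs: pairs 1, 4 and 6 at 7 days were male, pairs 2, 3 and 5 female, and at 1 month pair 7 was female and pairs 8 and 9 male. How the Aprt allele was disrupted is not given in the sources used here, and the labels name no treatment. Aprt encodes adenine phosphoribosyltransferase, the enzyme that returns adenine to the nucleotide pool. In its absence adenine is converted to 2,8-dihydroxyadenine, which crystallises in the kidney and forms stones.

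Nrf2, encoded by Nfe2l2, is held in the cytoplasm and degraded with the help of Keap1 until oxidants or electrophiles modify Keap1. Nrf2 then enters the nucleus, pairs with small Maf proteins and binds the antioxidant response element of its target genes, which supply glutathione, regenerate thioredoxin and reduce quinones and aldehydes. Superoxide dismutases turn superoxide into hydrogen peroxide, which catalase and the glutathione peroxidases remove. In the kidney the proximal tubule, rich in mitochondria and peroxisomes, is a main site of these enzymes and the main source of the Gpx3 found in plasma.

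RefSeq promoter windows (build GRCm38.p6) were found for 9 of the 10 genes, as 11 windows. The core of the antioxidant response element was searched as TGACNNNGC on both strands in the 250 bases before the start. It was present in 3338 of 32851 RefSeq windows, or 10.2%, and in 3 of the 11 windows of these genes. Those of Gclm, Txnrd1 and Sod1 are printed because they carry the core, with its letters in capitals, and that of Akr1b8 because Akr1b8 was the gene called higher in the Aprt KO kidneys. In the Akr1b8 window the capitals mark GGGCGG, the GC box, which was searched later and on both strands.
Gclm, chr3:122245337-122245486, plus strand: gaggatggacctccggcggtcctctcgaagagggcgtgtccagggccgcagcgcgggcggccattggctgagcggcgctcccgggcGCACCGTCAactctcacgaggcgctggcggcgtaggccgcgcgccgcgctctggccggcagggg
Txnrd1, chr10:82859056-82859205, plus strand: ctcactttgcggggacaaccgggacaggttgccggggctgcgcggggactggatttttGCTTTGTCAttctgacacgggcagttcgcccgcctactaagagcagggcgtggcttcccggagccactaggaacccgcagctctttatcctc
Sod1, chr16:90220612-90220761, plus strand: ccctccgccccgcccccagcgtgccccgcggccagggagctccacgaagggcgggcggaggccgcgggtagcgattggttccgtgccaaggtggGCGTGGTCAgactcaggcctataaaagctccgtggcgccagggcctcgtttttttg
Akr1b8, chr6:34353996-34354145, plus strand: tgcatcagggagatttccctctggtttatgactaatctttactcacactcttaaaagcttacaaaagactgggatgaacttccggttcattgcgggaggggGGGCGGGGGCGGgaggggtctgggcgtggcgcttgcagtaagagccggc
All 3 matches to TGACNNNGC read on the strand opposite to the gene. The Gclm match lies 134 to 126 bases before the start that the promoter table uses, which lies past the end of the printed stretch because that stretch stops where the span of the gene begins. The Txnrd1 match lies 92 to 84 bases before the start of a transcript that begins inside the span of the gene, and the Sod1 match 56 to 48 bases before its start. Akr1b8 has no TGACNNNGC in the 250 bases, and its pair of GC boxes lies 49 to 38 bases before the start. GGGCGG was found in 32.7% of all windows and in 8 of the 11 windows of these genes. A match is a run of letters and not a shown binding site, and a window without a match says nothing of sequence further out.

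The deposited values are MAS5 signals on a linear scale. Each array had been scaled to a trimmed mean close to 500, with values from 499.889 to 499.926. The targeted gene gave a weak check of the labels, because all 3 Aprt probe sets were dim. On the brightest, 8 labelled Aprt KO kidneys of the 2 ages other than pair 4 gave signals of 41.9 to 86.5, and 7 labelled controls other than those of pairs 1 and 2 gave 103.9 to 148.2. Against their labels, the controls of pairs 1 and 2 gave 66.3 and 51.3 and the Aprt KO kidney of pair 4 gave 135.4; the 86.5 of the Aprt KO kidney of pair 7 lay nearer to the controls of its age. Groups are therefore named by their labels throughout, and the fits were repeated without these 4 arrays. That changed the calls of Gclm and Gpx3 with age and of Gclm with sex, as given with those results, and no other call of the 10 genes. Both arrays of pair 4 stood apart in range: their highest signals were 10167 and 10767, against 25718 to 35783 on the other 10 arrays of that age. Kidney markers were present on every array, with the summed signal of 9 proximal tubule markers between 21943 and 63101.

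Of the 10 genes, Akr1b8 was the only one called between Aprt KO and control kidneys at 7 days, and it was higher in the Aprt KO kidneys. Akr1b8 is an aldo-keto reductase that reduces aldehydes and lies on chromosome 6 (34354146 to 34368461). Its signal in the control kidneys was 762, 771, 491, 537, 681 and 704 for pairs 1 to 6, and in their Aprt KO littermates 1275, 1301, 1148, 1037, 1242 and 1209. The lowest Aprt KO kidney lay above the highest control, and the Aprt KO kidney was the higher in 6 of 6 pairs, by 1.67 to 2.34 times. The means were 657.8 ± 117 and 1202 ± 96.9 (SD, n = 6). In the limma fit the fold change was 1.81 on the scale of log2(signal + 29), a log2 difference of 0.86 (SE 0.13) with a Benjamini-Hochberg adjusted p of 0.000535 over 5744 genes. Across all genes 3.22% were called in this comparison, 146 higher and 39 lower, beside 1 of the 10. The 10 genes were chosen with earlier results of these data known, so their count is not independent of the data. The share over all genes depends on the fit. With the litter pair as a fixed and as a random block, 500 and 522 of the 5744 genes were called, and 1 and 2 of the 10. The log2 difference was 1.02 without the 4 arrays that went against their Aprt label, and lay between 0.77 and 1.02 over 38 alternatives, with adjusted p from 7.01e-06 to 0.00491. In bulk kidney RNA, more cells of a type and more RNA per cell cannot be told apart.

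Other tissue moved with this result and its part was not tested. The summed signal of 12 myeloid markers was 2686 to 4631 in the 7-day controls and 6567 to 9317 in the Aprt KO kidneys. Of these markers 8 passed the filter on dim signals, and 8 of 8 rose in the limma fit. The sum of 5 injury markers, Lcn2 and Clu among them, was 2299 to 3318 in controls and 9267 to 12512 in Aprt KO kidneys, and 4 of 5 rose. Adrenal markers, which could enter with the gland beside the kidney, were uneven: their sum over 4 genes was 4410, 4395 and 4061 in the controls of pairs 1, 2 and 6 and 3947 in the Aprt KO kidney of pair 2, and 620 to 1067 on the other 8 arrays of that age. The 3 controls with the high adrenal sum also had the highest Akr1b8 of the controls. In pairs 3, 4 and 5, where neither kidney had a high adrenal sum, Akr1b8 was 491, 537 and 681 in controls and 1148, 1037 and 1242 in the Aprt KO kidneys. The adrenal list, with 4 of its 7 genes on the array, included Akr1b7, of the same gene family as Akr1b8. The part of adrenal tissue in these values was not tested.

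**Figure D1:**
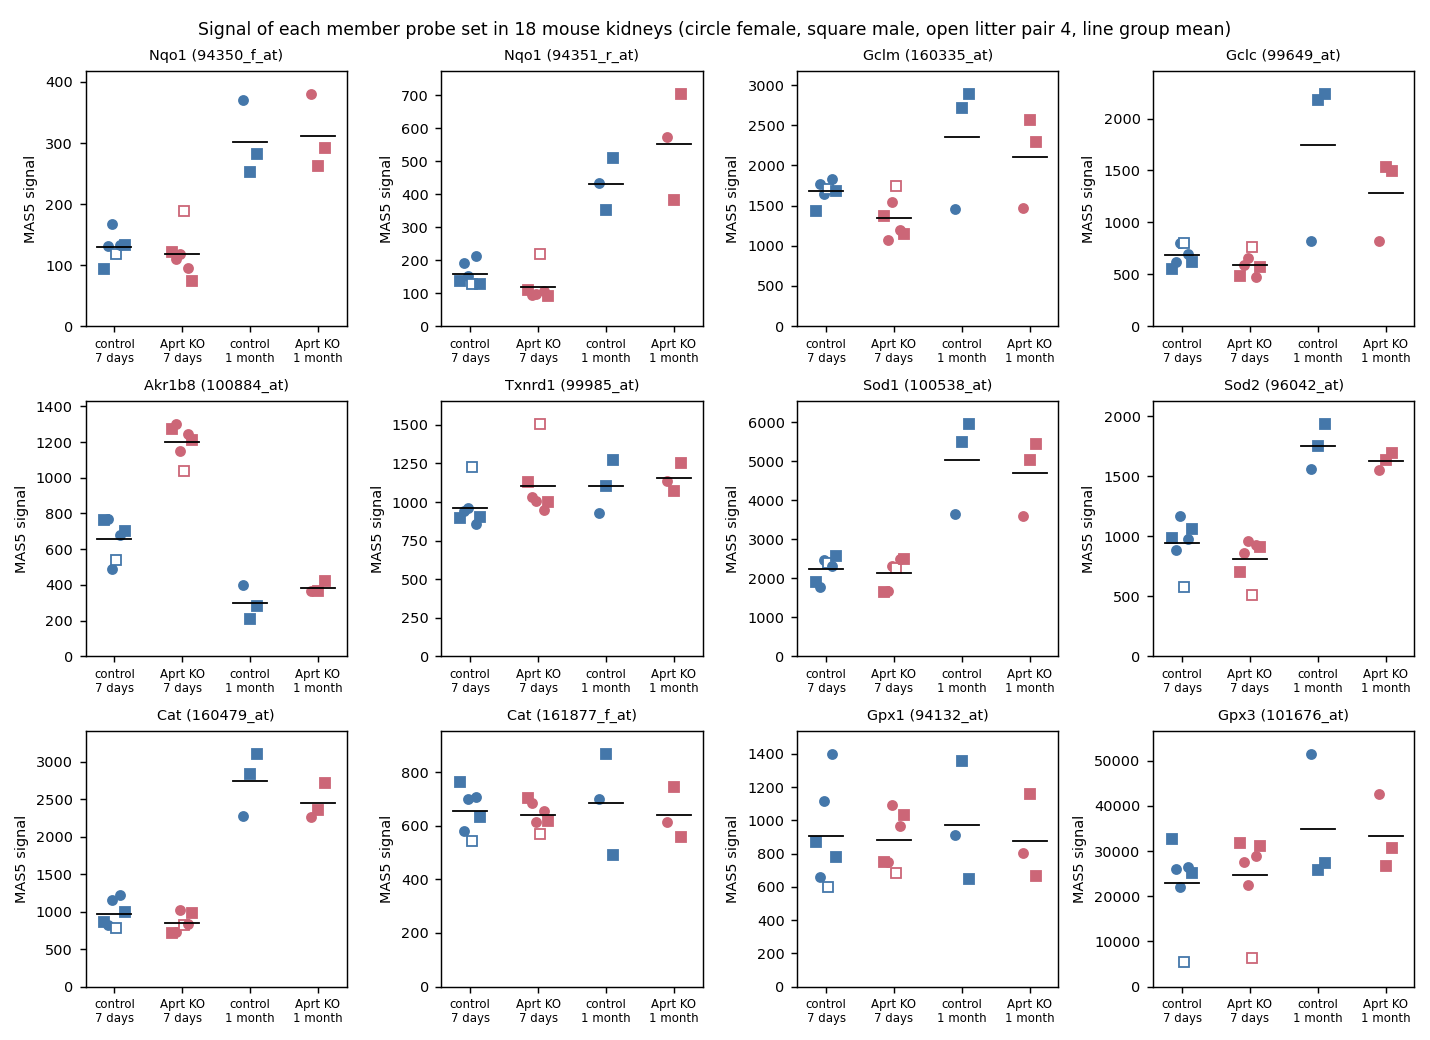
MAS5 signal of the 12 probe sets on each of the 18 arrays, by age and genotype, with a black line at the group mean, circles for females, squares for males and open symbols for litter pair 4. The Akr1b8 signals of the 6 Aprt KO kidneys at 7 days (1037 to 1301) lie above all 6 controls (491 to 771), while most other panels separate by age.

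The subunits of glutamate-cysteine ligase, the enzyme of the rate-limiting step of glutathione synthesis, were not called at 7 days. Gclm, the modifier subunit (chromosome 3, 122245487 to 122267215), had signals of 1433, 1776, 1640, 1711, 1830 and 1685 in the controls and 1374, 1075, 1548, 1744, 1202 and 1142 in the Aprt KO kidneys of pairs 1 to 6. The Aprt KO kidney was the lower in 5 of 6 pairs and the groups overlapped. The log2 difference was -0.33 (SE 0.11; limma adjusted p = 0.173). With the litter pair as a random block the adjusted p was 0.0274, which makes it a call, and with the pair as a fixed block it was 0.0634. It was also called without the Aprt KO array of pair 4, at -0.41 and an adjusted p of 0.0389. Gclc, the catalytic subunit (chromosome 9, 77754535 to 77794489), was lower in the Aprt KO kidney of 6 of 6 pairs, at 0.677 to 0.948 times its littermate. Its group means were 681.7 ± 104 in controls and 588.1 ± 108 in Aprt KO kidneys, and the log2 difference of -0.21 (SE 0.13) had an adjusted p of 0.697. No alternative made Gclc a call.

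Nqo1 and Txnrd1, the other Nrf2 targets, did not pass the test at 7 days either. Nqo1 reduces quinones by a pair of electrons at once and so avoids the semiquinone (chromosome 8, 107388225 to 107403205). Its brighter probe set gave 136, 193, 153, 129, 213 and 129 in controls and 108, 95.7, 95.9, 217, 106 and 91.9 in the Aprt KO kidneys. The Aprt KO kidney was the lower in 5 of 6 pairs, and pair 4, where the Aprt KO kidney reached 217, was the exception. The log2 difference was -0.37 (SE 0.19; adjusted p = 0.570), and -0.57 without pair 4, still not called. The dimmer Nqo1 probe set gave means of 129.4 ± 23.6 and 117.9 ± 39.2 and a difference of -0.13. Txnrd1, the cytosolic thioredoxin reductase (chromosome 10, 82833951 to 82897724), was higher in the Aprt KO kidney of 6 of 6 pairs, but by 1.05 to 1.26 times. Its signals were 896, 940, 959, 1225, 856 and 904 in controls and 1129, 1033, 1005, 1505, 951 and 997 in Aprt KO kidneys, where both arrays of pair 4 were the highest of their group. The log2 difference was 0.18 (SE 0.11; adjusted p = 0.683), with a 95% interval from -0.05 to 0.41.

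**Figure D2:**
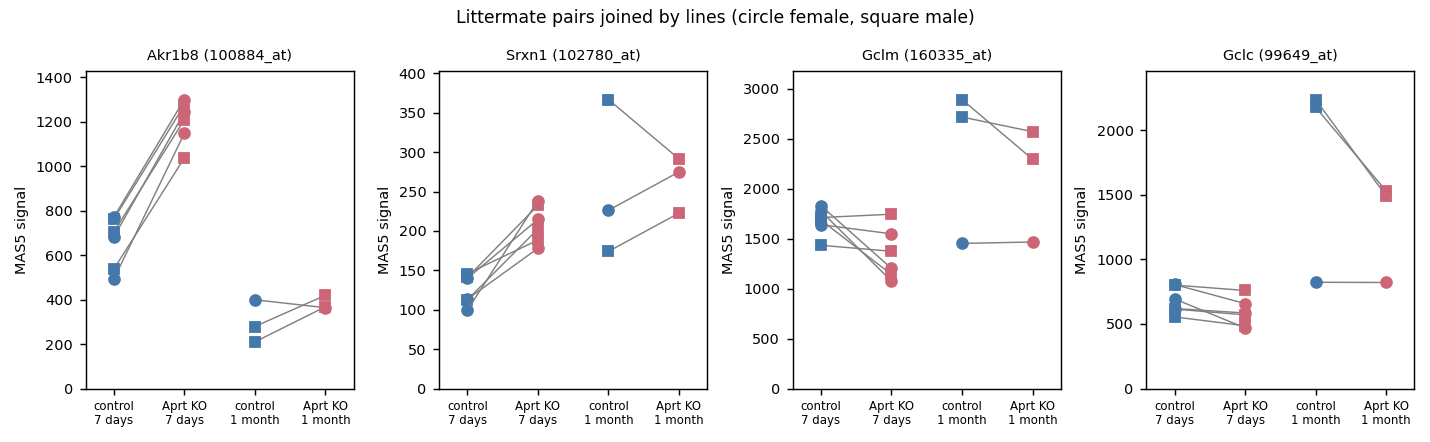
MAS5 signal of Akr1b8, the dimmer Srxn1 probe set, Gclm and Gclc on each array, with littermates joined by lines, circles for females and squares for males. All 6 lines of Akr1b8 and Srxn1 rise at 7 days without overlap of the groups, all 6 lines of Gclc fall, and at 1 month the female of each genotype lies below the males for Gclm and Gclc.

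None of the enzymes that act on superoxide and peroxide was called at 7 days. Sod1, the cytosolic copper-zinc dismutase (chromosome 16, 90220762 to 90226333), averaged 2248 ± 322 in controls and 2150 ± 387 in Aprt KO kidneys. Sod2, the mitochondrial manganese dismutase (chromosome 17, 13007839 to 13018119), was lower in the Aprt KO kidney of 6 of 6 pairs, with means of 943.9 ± 202 and 813.4 ± 173 and a log2 difference of -0.21 (SE 0.14; limma adjusted p = 0.781). Cat, the peroxisomal catalase (chromosome 2, 103453904 to 103485153), averaged 971.9 ± 180 and 847.3 ± 129, lower in 5 of 6 pairs. For Gpx1, the cytosolic selenium-dependent glutathione peroxidase (chromosome 9, 108339080 to 108340342), the means were 903.8 ± 302 and 878.8 ± 172, with 3 pairs in each direction and a log2 difference of -0.0014 (SE 0.20). Gpx3, the secreted glutathione peroxidase (chromosome 11, 54902854 to 54910387), averaged 22999.9 ± 9230 and 24749.9 ± 9612. Over the 10 genes 7 differences were below 0 at 7 days, with a median log2 difference of -0.128, beside -0.016 over all genes. The 9 proximal tubule markers had a median difference of -0.312 in the same comparison, and 2 of them fell. Their sum was 28534 to 38780 in controls and 21943 to 34855 in Aprt KO kidneys. The 5 markers of other parts of the nephron had a median difference of -0.276, and 1 of them fell. The part of these markers in the lower values was not tested.

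Beyond these genes, 64 other genes of the pathway were listed (regulators, glutathione supply, the thioredoxin system, further Nrf2 targets, other superoxide and peroxide enzymes, and oxidant producers), of which 51 were on the array and 43 passed the filter. On each gene's brightest probe set, none of the 43 rose at 7 days and 1 fell, with a median log2 difference of -0.035. The gene that fell was Gsta4, a glutathione transferase that conjugates the lipid peroxidation product 4-hydroxynonenal. Its means were 599.5 ± 116 in controls and 354.1 ± 71 in Aprt KO kidneys, lower in 6 of 6 pairs, with a log2 difference of -0.71 (SE 0.19; limma adjusted p = 0.0476). That call was lost in 26 of 38 alternatives, with adjusted p up to 0.458. Ephx1 had a larger difference of -0.76, lower in 6 of 6 pairs, and was not called (limma adjusted p = 0.154). It was called with the litter pair as a fixed block (adjusted p = 0.0318) and as a random block (0.0149). Nfe2l2 itself averaged 1381 ± 155 and 1328 ± 206 and differed by -0.06 (SE 0.09; adjusted p = 0.985). Keap1 was dim on all arrays, with signals of 7.8 to 66.4, and was not tested. Hmox1, heme oxygenase 1, averaged 1838 ± 264 and 1654 ± 177, a log2 difference of -0.14 (adjusted p = 0.932).

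Srxn1, the sulfiredoxin that repairs over-oxidised peroxiredoxins, has 2 probe sets that differed in their result, and it is described because of its values. The brighter one, which stands for the gene, differed by 0.14 (SE 0.17, limma adjusted p = 0.968). On it the Aprt KO kidney was the higher in 5 of 6 pairs. The control of pair 5 read 398 on it, against 160 to 205 in the other 7-day controls. The dimmer one gave 113, 113, 140, 141, 99.3 and 146 in the 7-day controls and 202, 178, 215, 232, 238 and 188 in their Aprt KO littermates. No control reached the lowest Aprt KO kidney. When every probe set was fitted on its own, the dimmer one differed by 0.63 (SE 0.16; limma adjusted p = 0.0315). In the other direction, the carbonyl reductase Cbr1 was lower in 6 of 6 pairs without overlap, with means of 1620 ± 217 in controls and 1198 ± 82.5 in Aprt KO kidneys, and was not called (-0.42, SE 0.23; limma adjusted p = 0.605). Of 5 oxidant producers on the array 1 passed the filter, Cyba, which differed by 0.06 at 7 days and was not called. Ncf1 and Xdh were too dim for the filter, and were higher in the Aprt KO kidney of 6 and 3 of 6 pairs. The phagocyte NADPH oxidase genes Ncf4 and Cybb were also too dim. Their 7-day means were 27.5 ± 17.2 in controls against 156.6 ± 52.8 for Ncf4 and 87.8 ± 20 against 145.1 ± 26.6 for Cybb. The Aprt KO kidneys also had the higher myeloid markers, and the part of these was not tested.

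At 1 month none of the 10 genes was called between the genotypes, where 0.313% of all genes were called (17 higher, 1 lower). Akr1b8 read 400, 210 and 279 in the controls of pairs 7 to 9 and 364, 368 and 419 in the Aprt KO kidneys. It was higher in 2 of 3 pairs, and the groups overlapped. The log2 difference of 0.38 (SE 0.19) had a limma adjusted p of 0.9996 and a 95% interval from -0.01 to 0.78. The adrenal markers summed to 926, 3923 and 2204 in the Aprt KO kidneys of pairs 7, 8 and 9, and to 647 to 1251 in the controls. None of the 4 adrenal genes was called between the genotypes at this age. The part of adrenal tissue in the Akr1b8 values was not tested. Gclc read 823, 2177 and 2238 in controls and 821, 1530 and 1491 in Aprt KO kidneys, a log2 difference of -0.36 (SE 0.18). Nqo1 was higher in 3 of 3 pairs on both of its probe sets, by 1.09 to 1.38 times on the brighter one (log2 difference 0.31, SE 0.28). For Sod1, Sod2 and the brighter Cat probe set the Aprt KO kidney was the lower in 3 of 3 pairs, at 0.829 to 0.996 times its littermate, and for the dimmer Cat probe set in 2 of 3. In pair 7, Gclm, Gclc, Sod1, Sod2 and the brighter Cat probe set stood at 0.990 to 1.01 times the littermate and the other probe sets at 0.828 (Gpx3) to 1.32 (the brighter of Nqo1); this is the pair whose Aprt KO array had the Aprt signal of 86.5. Of the 43 other pathway genes none was called, and their median difference was 0.0411.

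The difference between the ages in the genotype effect was tested as an interaction, in which 0.4% of all genes were called and none of the 10. The interaction of Akr1b8 was -0.47 (SE 0.23; limma adjusted p = 0.936), with a 95% interval from -0.96 to 0.0087. The call at 7 days and the lack of one at 1 month therefore do not show that the effect differed. That of Nqo1 was 0.68 (SE 0.34; adjusted p = 0.952), from a difference below 0 at 7 days to one above 0 at 1 month. No alternative made either interaction a call.

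**Figure D3:**
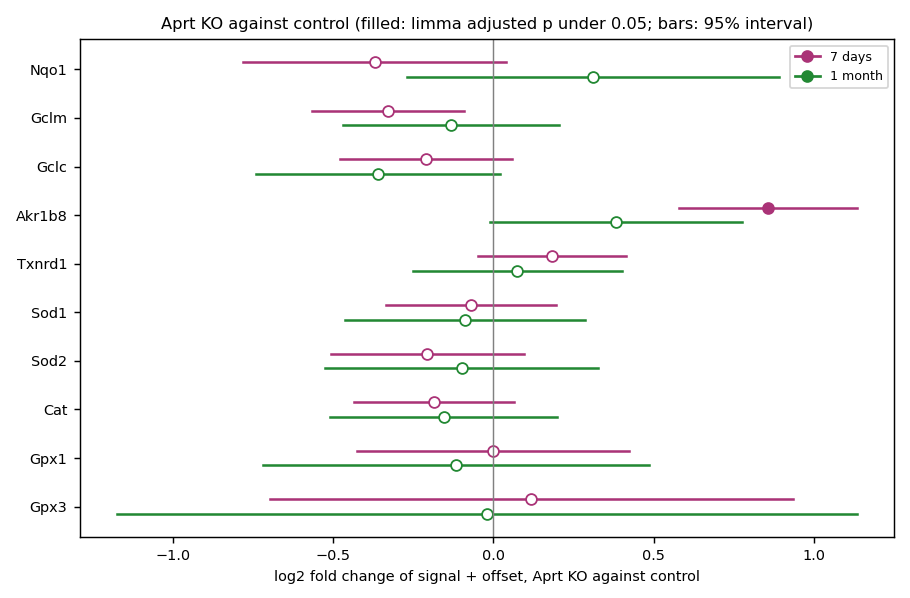
Log2 fold change of Aprt KO against control at 7 days (purple) and 1 month (green) for each gene's brightest probe set, with 95% intervals, filled where the limma adjusted p was under 0.05. Akr1b8 at 7 days (0.86) is the single filled point, and the intervals of Gpx3 are the widest.

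More of these genes were called with age than with genotype. In controls 40.9% of all genes were called between 1 month and 7 days (851 higher, 1497 lower), and in Aprt KO kidneys 40.3% (859 higher, 1454 lower). Of the 10 genes 5 rose and 1 fell in controls, and 6 rose and 1 fell in Aprt KO kidneys. The median log2 change was 0.852 and 0.78, while over all genes it was -0.112 and -0.122. The age groups were of different litters, and array batches were not given, so an effect of batch cannot be told apart from age. Age effects weight the sexes equally, since a sex term was fitted at each age.

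Cat had the largest rise of the 10 in controls. Its brighter probe set read 786 to 1218 in the 7-day controls and 2282, 2839 and 3099 at 1 month, and the ages did not overlap in either genotype. The rise was 1.43 (SE 0.15; limma adjusted p = 4.93e-07) in controls and 1.46 in Aprt KO kidneys. The other Cat probe set, of a type whose probes may match related sequences, did not follow: it averaged 654.1 ± 83.7 and 685.9 ± 189 in controls, a change of 0.04. The rise of Cat therefore rests on 1 of its 2 probe sets, and with the mean of both it was 0.74 in controls.

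Nqo1 rose on both probe sets and without overlap. Its dimmer probe set is of the same type as the Cat probe set that did not follow. The brighter read 129 to 213 in 7-day controls and 434, 352 and 510 at 1 month, a rise of 1.32 (SE 0.24; limma adjusted p = 0.000289). In Aprt KO kidneys it went from a median of 101 (91.9 to 217) to 573, 382 and 704, a rise of 1.999 (adjusted p = 3.31e-06). The dimmer probe set rose by 1.13 and 1.31. Sod1 rose by 1.04 in controls (SE 0.16; adjusted p = 4.06e-05), from 1791 to 2585 at 7 days to 3642, 5492 and 5959, and by 1.02 in Aprt KO kidneys. Sod2 rose by 0.87 (SE 0.18; adjusted p = 0.000771) and 0.98, from 580 to 1169 in 7-day controls to 1562, 1752 and 1936. In the 1-month Aprt KO kidneys Sod1 read 3605, 5042 and 5446 and Sod2 1556, 1634 and 1693. For Nqo1, Gclc, Sod1, Sod2 and the brighter Cat probe set, every 1-month kidney of either genotype stood above every 7-day kidney, and within an age the genotypes overlapped. The share of all genes separate in this way was not counted, so whether this is unusual for the array is not known. By the limma call, which is another measure, 40.9% of all genes changed with age in controls and 40.3% in Aprt KO kidneys.

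The subunits of glutamate-cysteine ligase differed in their result with age. Gclc rose by 1.01 (SE 0.16; limma adjusted p = 5.71e-05) in controls and 0.86 (adjusted p = 0.000283) in Aprt KO kidneys. Its lowest 1-month control was 823 and its highest 7-day control 806, so the groups were separate by little. Gclm changed by 0.28 in controls (SE 0.14; adjusted p = 0.120), not a call, and rose by 0.48 in Aprt KO kidneys (adjusted p = 0.0109), and its ages overlapped in both. Without pair 7 Gclm was called in controls too, at 0.73 with an adjusted p of 0.00201. In Aprt KO kidneys the call was lost without the Aprt KO array of pair 7 (0.39, adjusted p = 0.194) and without the 4 arrays that went against their Aprt label (0.47, adjusted p = 0.0910).

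Akr1b8 was the gene that fell with age. In controls its mean went from 657.8 ± 117 at 7 days (n = 6) to 296.2 ± 96 at 1 month (n = 3), a log2 change of -1.05 (SE 0.17; limma adjusted p = 5.71e-05), and in Aprt KO kidneys from 1202 ± 96.9 to 383.8 ± 31, a change of -1.53 (adjusted p = 8.53e-07). The ages did not overlap in either genotype. Myeloid and injury markers moved with this fall. In Aprt KO kidneys 7 of 8 myeloid markers fell with age (median -1.27) and 5 of 5 injury markers (median -1.93). In controls 1 myeloid marker fell and 1 rose (median -0.247), and 3 of 5 injury markers fell (median -1.68). Their part in the fall of Akr1b8 was not tested. In order of level, Akr1b8 stood highest in the 7-day Aprt KO kidneys, then in the 7-day controls, then in the 1-month Aprt KO kidneys and lowest in the 1-month controls. The 1-month groups overlapped each other, and no other neighbours in that order did. Txnrd1 changed by 0.16 and 0.05 with age, and Gpx1 by 0.08 and -0.03, with adjusted p of 0.393 and above. At 1 month Gpx1 read 909, 1357 and 645 in controls and 806, 1160 and 664 in Aprt KO kidneys. The group means lay between 963.4 and 1155 for Txnrd1 and between 876.6 and 970.5 for Gpx1, and no neighbouring groups in either order differed beyond their spread.

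**Figure D4:**
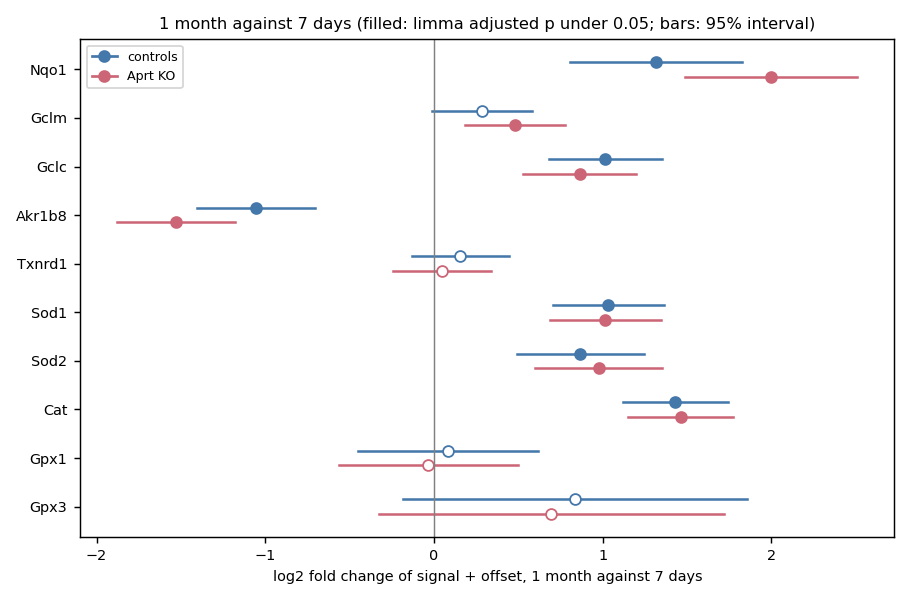
Log2 fold change from 7 days to 1 month in controls (blue) and Aprt KO kidneys (red) for each gene's brightest probe set, with 95% intervals, filled where the limma adjusted p was under 0.05. Nqo1, Gclc, Sod1, Sod2 and Cat lie right of 0 in both genotypes, Akr1b8 lies left of 0, and Gclm is filled in the Aprt KO kidneys only.

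Gpx3 gave signals near the top of the range on most arrays, and at 7 days its spread came mostly from pair 4. Its signals at 7 days were 32749, 25950, 22138, 5542, 26472 and 25148 in controls and 31907, 27653, 22531, 6340, 28900 and 31169 in Aprt KO kidneys. Pair 4 was far below the others in both genotypes, and these are the arrays whose highest signal reached 10767. On them the brightest 1% of probe sets lay 0.60 and 0.74 below their usual level on the log2 scale, against a range of -0.04 to 0.11 on the other 7-day arrays. The Gpx3 signal was the 197th and 133rd highest on the arrays of pair 4, and between the 2nd and the 14th highest on the others of that age. The part of the array range in the low Gpx3 of pair 4 was not tested. At 1 month Gpx3 read 51453, 25762 and 27444 in controls and 42628, 26689 and 30695 in Aprt KO kidneys, and it was the highest signal on all 6 arrays. The age change was 0.83 (SE 0.48; limma adjusted p = 0.186) in controls and 0.70 (adjusted p = 0.275) in Aprt KO kidneys. Without pair 4 the age change was smaller but called, at 0.44 (adjusted p = 0.00639) and 0.31 (adjusted p = 0.0394). In controls it was also called without the 4 arrays that went against their Aprt label, at 1.13 (adjusted p = 0.0485). Whether so high a signal still follows the RNA was not tested.

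**Figure D5:**
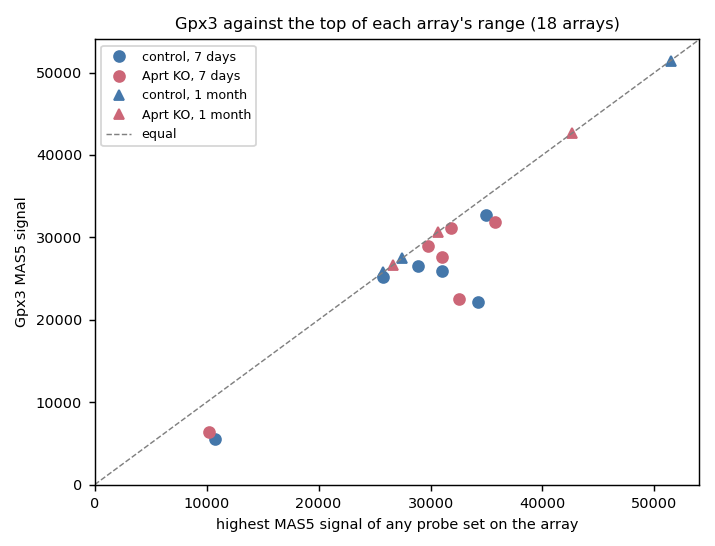
Gpx3 signal against the highest signal of any probe set on the same array, for 18 arrays, with circles for 7 days, triangles for 1 month and a dashed line where the 2 are equal. The arrays of litter pair 4 lie alone at 5542 and 6340, and the 6 arrays of 1 month lie on the line.

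The other pathway genes also changed with age, 17 up and 7 down of 43 in controls and 19 up and 8 down in Aprt KO kidneys. Across all genes 40.9% were called in controls (851 higher, 1497 lower) and 40.3% in Aprt KO kidneys (859 higher, 1454 lower). The largest rises in controls were those of Abcc2 (1.83), an exporter of glutathione conjugates, Me1 (1.72), the malic enzyme that makes NADPH, and Gpx4 (1.09), which reduces lipid hydroperoxides. In Aprt KO kidneys they were Ephx1 (2.42), the microsomal epoxide hydrolase, Me1 (1.93) and Abcc2 (1.83). The largest falls in both were the metallothioneins Mt2 (-2.32 in controls, -1.89 in Aprt KO kidneys) and Mt1 (-1.98 and -1.55) and the peroxidase Gpx7 (-1.68 and -1.53). Mt1 averaged 10620.1 ± 1912 in 7-day controls and 2596 ± 512 at 1 month. Nfe2l2 fell as well, by 0.60 in controls (SE 0.11; limma adjusted p = 0.000430) and by 0.48 in Aprt KO kidneys, from 1381 ± 155 to 907.9 ± 38.6 in controls. In Aprt KO kidneys that call was lost without the 4 arrays against their Aprt label (adjusted p = 0.0562) and without the Aprt KO array of pair 7 (0.0542). Proximal tubule markers moved with these changes: their sum was 28534 to 38780 in 7-day controls and 51856 to 63101 at 1 month, and 21943 to 34855 and 52179 to 61007 in Aprt KO kidneys. Of the 9 markers 6 rose in controls (median 0.675) and 8 in Aprt KO kidneys (median 1.14). Of 5 markers of other parts of the nephron, 5 rose in controls (median 0.825) and 5 in Aprt KO kidneys (median 1.32). The part of these markers in the changes was not tested.

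At 1 month 6 of the 10 genes were separate between the 2 females and the 4 males on their brightest probe set, as were 31.6% of all genes tested, and this comparison was added after the data were seen. Gclc read 821 and 823 in the females and 1491 to 2238 in the males, a log2 difference of 1.12 (SE 0.19; limma adjusted p = 0.00289). Gclm read 1452 and 1466 against 2294 to 2892, a difference of 0.83 (SE 0.17; adjusted p = 0.0119). Sod1, Sod2 and the brighter Cat probe set were also higher in every male than in the females, without being called, and Gpx3 was the higher in the females, at 42628 and 51453 against 25762 to 30695. The dimmer Nqo1 probe set was also separate and higher in the females, at 370 and 380 against 252 to 292. Of all genes 2.77% were called between the sexes at 1 month, and 0.0522% at 7 days, where none of the 10 was. The 1-month females are a single litter pair, so sex and litter cannot be told apart. With the litter pair as a random block neither gene was called (adjusted p = 0.0625 for Gclc and 0.266 for Gclm), nor was either without the control array of pair 7. Gclm also lost its call without the Aprt KO array of pair 7 (0.93, adjusted p = 0.0836) and without the 4 arrays that went against their Aprt label (0.93, adjusted p = 0.0716), and without litter pair 4 Gpx3 gained one (-0.76, adjusted p = 0.00497). Whether the sex difference differed between the ages was not tested. Of the other pathway genes, Gsta4 (-1.73) and Cbr1 (-1.72) were called lower and Glrx (0.58) higher in males at 1 month. They were picked out after their values were seen.

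For each gene called in any of these comparisons, the closest genes in profile were found as those with the smallest root mean square distance between mean-centred log2 signals over the 18 arrays. For Sod1 they were Gpx4 at 0.129, Vil1 at 0.162 and Pmpcb at 0.180, where the SD of Sod1 itself was 0.602. For Sod2 they were Pdzk1 at 0.163, Smpdl3a at 0.166 and the phosphate transporter Slc34a1 at 0.177, with an SD of 0.540. Cat lay closest to Ppa2 (0.149), Cyb5a and Plpbp, Gclm to Mlec (0.184), Map7 and Eci2, Gclc to Coasy (0.237), Mtor and Cckar, and Nqo1 to Sirt3 (0.318), Cisd1 and Papss2. Akr1b8 lay closest to Pla2g7 (0.256), Csrp1 and Rrad. These distances describe 18 arrays that share ages and litters.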

How the data were processed

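Deposited MAS5 intensity signals for 12488 probe sets on 18 arrays were used as they stand; per the submitters' processing notes they were made with GCOS and MAS5, with no version or scaling target given in the sources used here. RNA was extracted and labelled with biotin per the labels' protocols. Of the probe sets, 10833 had 1 gene symbol, 396 several and 1193 none, and 66 were controls; none was named from several symbols. The brightest probe set stood for a gene, which was kept at a mean signal of at least 118.6, the 40th percentile, which left 5744 of 8251 genes.

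Values were log2(signal + 29), 29 being the rounded 20th percentile; this offset makes fold changes of dim genes too small. limma 3.58.1 in R 4.3.3 (lmFit, eBayes with an intensity trend) fitted all 18 arrays with a term for every group and, within each age, a term for sex (12 residual degrees of freedom). Tests were two-sided, adjusted by Benjamini-Hochberg over 5744 genes and called under 0.05; intervals are 95% and unadjusted. The script was tested on simulated data. Depth does not apply to arrays, and their number, 3 to 6 a group, limits the precision.

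The members and lists were chosen with earlier results of these data known. All 12 member probe sets are accounted for. Of the other pathway genes, those called between genotypes are named, and for age the 3 largest rises and falls; Nfe2l2 and Keap1 are given always. Hmox1, Srxn1, Ncf4, Cybb, Cbr1 and Glrx are outside this rule and were picked once their values had been seen. So were the genotype values of Ephx1. Cyba, Ncf1 and Xdh are given as the rest of the oxidant producers on the array. Marker lists for fat and blood were also summed: neither had a called gene between genotypes. Lists are described by counts and medians, with no set test.

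The litter pairing comes from the labels. Deviations of littermates from their group means correlated at 0.239 to 0.673 in the 9 pairs, so the pair was tried as a fixed block, which gives no age or sex comparison, and as a random block (correlation 0.567). The other alternatives were the offset, the filter, the probe set rule, quantile normalization, no sex terms, no intensity trend, and leaving out single arrays, litter pairs or the arrays against their Aprt label, 38 in all. No arrays held identical values, and no column was left unused. Figures were drawn with matplotlib 3.10.9.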

Additional observations from a re-analysis of the deposited data

Results flagged for a closer look

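In groups of 6 arrays, the gap between the most extreme array and its neighbour, as a share of the group's range, passed Dixon's 95% critical value in 5 of 42 groups, where chance gives about 1 in 20. All 5 were arrays of litter pair 4. The Nqo1 signal of 217.1 in the 7-day Aprt KO kidneys stood above the next value of 108.0, a share of 0.871. Txnrd1 was highest in pair 4 in both genotypes, at 1225 against 958.6 in controls (0.721) and 1505 against 1129 in Aprt KO kidneys (0.679). Gpx3 was lowest at 6340 against 22531 (0.633) and Mt1 lowest at 6946 against 9239 (0.632), both in Aprt KO kidneys.

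Gsta4 was lower in the Aprt KO kidney of all 6 pairs at 7 days and higher in all 3 pairs at 1 month, where the log2 ratio of the group means was 0.528. The difference was tested as an interaction of 1.32, with a limma adjusted p of 0.123, and was called with the litter pair as a fixed block (adjusted p = 0.00388) and as a random block (0.00174). The interaction of Ephx1 was 1.35 (limma adjusted p = 0.374) and was called with the random block (0.0346).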

How the results depend on the processing

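Over 50 genotype, interaction and age values of the 10 genes, 1872 of 1880 alternative values kept the main result's side of the threshold, 2 lost a call, 6 gained one and none of the called values changed sign; among 45 values of the other named pathway genes 1647 of 1692 did so, 35 lost a call and 10 gained one. With the pair as a fixed or random block, 500 and 522 genes were called between genotypes at 7 days in place of 185, 79 and 117 at 1 month in place of 18, and 93 and 142 for the interaction in place of 23. The random block gave 2 of the 10 genes at 7 days in place of 1, 23 genes between the sexes at 1 month in place of 159, and 0 of the 10 in place of 2. Apart from the values printed beside the results, the blocks changed no call of the 10 genes. Without the 4 arrays against their Aprt label the counts were 97, 3 and 7 for the 2 genotype effects and the interaction, 1226 in place of 2313 for age in Aprt KO kidneys, and 57 and 1 for sex at 1 month. At 1 month the count between genotypes was 28 with an offset of 1, 7 with an offset of 112 and 9 with the mean of a gene's probe sets. Leaving out single arrays or pairs gave 110 to 208 genes at 7 days, with 1 to 2 of the 10; 4 to 21 at 1 month; 8 to 37 for the interaction; 1431 to 2367 and 1413 to 2346 for age in controls and Aprt KO kidneys; and 6 to 248 for sex at 1 month, with 0 to 3 of the 10. The lowest age counts came without the female of pair 7. The causes were not tested.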
